A study of Homo sapiens with 9 samples.

Results

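The transcription factors that lay down the kidney lineage were followed as a set of 8 genes (HNF4A, HNF4G, PAX2, PAX8, LHX1, EMX2, GATA3 and WT1) in HKC-8, an established human line derived from kidney proximal tubular epithelium. They were found by gene symbol, and each of the 8 had a single row among the 20323 genes of the deposited table, 1659 of which carry a transcription factor family in that table. Poly(A) RNA was sequenced in 9 libraries. In 3 libraries (Wnt1_KP6) the cells received KP6, which is a fragment of the kidney protein Klotho, on top of a Wnt1 plasmid. In 3 libraries (Wnt1) they received the Wnt1 plasmid without KP6. In 3 libraries (control) they received the empty vector pcDNA3. All groups share the one cell line and a transfection, and no group here received KP6 without the Wnt1 plasmid. The labels state neither dose nor time after transfection. They do not say that replicates were separate cultures either, so the p-values cover no more than the spread of these libraries, which can be technical.

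The 8 genes act at successive steps of kidney development. PAX2, PAX8 and LHX1 specify the intermediate mesoderm and nephric duct, GATA3 and EMX2 act in the duct and ureteric bud, WT1 acts in nephron progenitors and later in podocytes, and HNF4A drives the metabolic and transport genes of the proximal tubule, with HNF4G as its close paralog. In the adult nephron PAX8 stays on in tubular epithelium, whereas PAX2 and LHX1 are largely switched off in the mature proximal tubule.

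HKC-8 libraries held a partial set of these regulators. PAX8, LHX1 and HNF4G were expressed, defined as at least 1 FPKM (fragments per kilobase of transcript, scaled to library size, as deposited by the authors) in each of the 9 libraries. PAX2 and GATA3 had traces, with more than 3 counts in some library but never 1 FPKM. HNF4A, EMX2 and WT1 were not detected, with 3 counts or fewer in every library. For comparison, 55.9% of the 1659 transcription factor genes and 53.2% of all genes met the same definition of expressed. A stricter limit, 0 counts throughout, held for 11.3% of the transcription factors. EMX2 and WT1 met it, and HNF4A did not. The same 3 genes were above 1 FPKM in each group.

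Facts of the whole series bear on every value that follows. Library totals were 21199078 to 27507623 expected counts, so 3 counts, the upper limit that a count of 0 allows, equalled 0.109 to 0.142 CPM (counts scaled to the library total), for counting error only. Replicate 1 stood apart in all 3 groups: mitochondrial genes held 5.18% to 5.72% of its counts, against 7.01% to 7.97% in replicates 2 and 3. Within a group, replicate 1 differed from replicates 2 and 3 with a chi-square per degree of freedom of 54.3 to 142, against 3.09 to 13.4 between replicates 2 and 3. Replicate 1 of Wnt1_KP6 and replicate 1 of Wnt1 differed by 3.45 on that measure, which lies within the range of replicates 2 and 3 of a group. The human WNT1 gene had 1, 2 and 0 counts in the libraries labelled Wnt1_KP6 and 0 counts in all those labelled Wnt1 and control. The counts of this gene thus do not show the plasmid, whose insert sequence is not given in the sources used here, and the group names stand for labels throughout. Of 9 defining proximal tubule markers, 8 stayed below 1 FPKM in every library, with 0.517 FPKM of SLC5A2, the apical glucose transporter, as their highest value. The organic anion transporters SLC22A6 and SLC22A8 had 0 counts, and the endocytic receptor LRP2 had 2 counts over all libraries. The ninth, GGT1, averaged 105.9 FPKM, but it has near-identical copies among which the authors' counting could split reads. The defining markers thus go against a mature proximal tubule at the RNA level. The wider list of 53 proximal tubule genes that holds them was mixed, with 16 expressed and 8 at 0 counts.

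**Figure D1:**
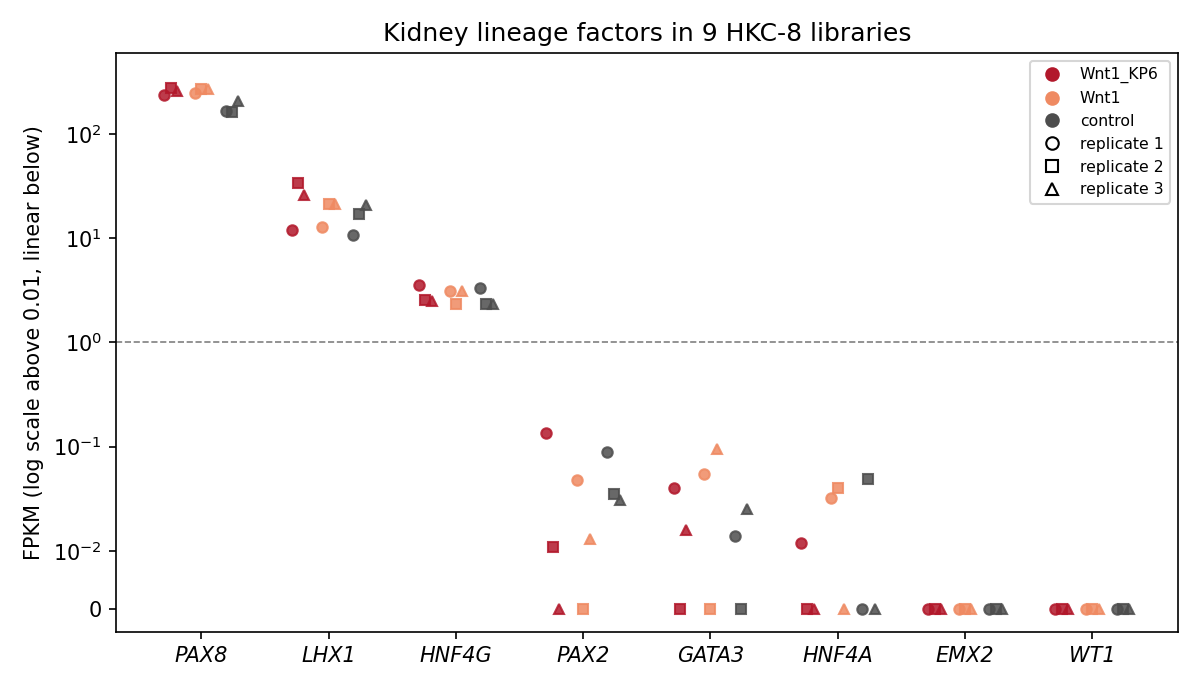
FPKM of the 8 lineage factors in each of the 9 libraries, on a scale that is logarithmic above 0.01 and linear below it. Colours stand for the groups, marker shapes for the replicate numbers, and the dashed line is 1 FPKM: PAX8, LHX1 and HNF4G lie above it in all libraries, and the other 5 genes lie far below it or at 0.

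PAX8 (ENSG00000125618, chr2:113215997-113278950, minus strand, hg38) was the dominant member. Its paired-box protein is kept by nearly all kidney epithelia and by tumours that arise from them. It averaged 232.6 FPKM over the 9 libraries, the 9th highest transcription factor and the 231st highest gene of the table. Among transcription factors its rank moved only between 8 and 15 across libraries. PAX2 (ENSG00000075891, chr10:100735603-100829941, plus strand) is its close relative, and in the mouse nephric lineage the pair act redundantly. PAX2 averaged 0.0402 FPKM. Of the 9 PAX family genes, PAX8 and PAX6, an eye and pancreas factor at 2.63 FPKM, were the ones expressed.

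The start regions of this pair are shown because the 2 related genes lie far apart in level. Each is a RefSeq window on GRCh38.p14 from 250 bases before to 50 bases after an annotated start, written 5′ to 3′ on the gene's strand. PAX8 is at chr2:113278872-113279171 (minus) and the first of 2 PAX2 windows at chr10:100735146-100735445 (plus). Capitals mark CpG dinucleotides.
PAX8: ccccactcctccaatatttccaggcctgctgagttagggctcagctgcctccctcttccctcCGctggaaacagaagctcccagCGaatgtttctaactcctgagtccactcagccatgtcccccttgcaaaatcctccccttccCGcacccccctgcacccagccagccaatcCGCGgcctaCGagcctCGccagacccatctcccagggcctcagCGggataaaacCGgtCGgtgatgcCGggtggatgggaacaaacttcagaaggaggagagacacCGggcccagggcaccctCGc
PAX2: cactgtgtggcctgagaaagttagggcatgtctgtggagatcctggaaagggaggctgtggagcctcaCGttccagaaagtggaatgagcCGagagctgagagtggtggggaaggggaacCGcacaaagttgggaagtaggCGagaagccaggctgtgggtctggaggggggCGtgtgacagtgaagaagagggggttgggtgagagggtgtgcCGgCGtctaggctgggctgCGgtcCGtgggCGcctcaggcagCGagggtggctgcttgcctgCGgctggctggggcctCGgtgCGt

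The PAX8 window held 13 CpG and the PAX2 window 14, against a median of 14 over 35116 windows of the same length. Their GC content was 62% and 63.7%, against a median of 58.7%. The second PAX2 window, not shown, held 19 CpG at a GC content of 66.7%. The 6 motifs searched on both strands (TCF/LEF CTTTGA in 12.9% of all windows, cyclic AMP response element TGACGTCA in 1.85% of all windows, AP-1 TGACTCA in 4.95% of all windows, GC box GGGCGG in 45% of all windows, TATA box TATAAA in 11.5% of all windows, HNF4 half-site with spacer CAAAGTCCA in 0.384% of all windows) had no match in either printed window. The absence of a match says only that these letters are not in these windows. Of the 8 members, 6 had a window in the RefSeq table used, and LHX1 and HNF4G are named here without one.

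PAX8 counts lay above control in every library of both plasmid groups, a difference that missed edgeR's threshold over all genes. PAX8 had 665.5, 763.6 and 734.6 CPM in Wnt1_KP6 replicates 1, 2 and 3, and 677.9, 728.9 and 748.5 CPM in Wnt1, against 549.8, 492.4 and 573.9 CPM in control. Every Wnt1_KP6 and every Wnt1 library lay above every control library, and the 2 plasmid groups overlapped each other. The means were 721 ± 50.4 CPM in Wnt1_KP6, 719 ± 36.5 in Wnt1 and 539 ± 41.8 in control (SD, n = 3 each).

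Against control, the log2 fold change of PAX8 was 0.50 ± 0.12 (SE) in Wnt1_KP6, with an unadjusted p of 0.00174 and an adjusted p of 0.0981 by edgeR (quasi-likelihood test, two-sided, Benjamini-Hochberg over all 13153 genes tested). It thus missed the threshold of 0.05. In Wnt1 against control it was 0.44 ± 0.12, with an unadjusted p of 0.00394 and an adjusted p of 0.209 by the same edgeR test. Both comparisons use the same control libraries. The sign was the same in every same-numbered pair, at 0.28, 0.63 and 0.36 for Wnt1_KP6 over control and 0.30, 0.57 and 0.38 for Wnt1 over control. Any matching of libraries would give that sign, since neither plasmid group overlapped control, so the pairs add no evidence. DESeq2's Wald test called PAX8 in both, with adjusted p-values of 0.00283 and 0.0224. Without control replicate 1, edgeR's adjusted p for Wnt1_KP6 over control was 0.0462, where 9.03% of all genes were called. Without Wnt1_KP6 replicate 1 it was 0.0183, where 5.2% of all genes were called. With each of the 9 libraries left out in turn, this edgeR adjusted p ranged from 0.0183 to 0.459. Only the fits without control replicate 1 or Wnt1_KP6 replicate 1 passed the threshold. With KP6 added to the Wnt1 plasmid, PAX8 differed from Wnt1 by less than the spread of the libraries, at 0.06 ± 0.12 on the log2 scale (edgeR adjusted p = 1). In bulk RNA, a change in the number of cells that express a gene and a change in RNA per cell cannot be told apart.

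No member was called, that is, had an edgeR adjusted p under 0.05, in any of the 3 comparisons, of the 3 that passed the filter on low counts. At an unadjusted p under 0.05 there were 1, 0 and 1 (PAX8 each time) in Wnt1_KP6 vs control, Wnt1_KP6 vs Wnt1 and Wnt1 vs control, beside 15.8%, 2.76% and 11.2% of all genes. The background was as sparse: edgeR called 0.228% of all tested genes in Wnt1_KP6 vs control, 0% with KP6 against without it, and 0.122% in Wnt1 vs control. The 0 in Wnt1_KP6 vs Wnt1 stands beside 363 genes at an unadjusted p under 0.05, 19 by DESeq2 and 0 by limma. DESeq2 called 5.13%, 0.144% and 2.32% of genes in the 3 comparisons, and 1, 0 and 1 of the members. limma on log2(FPKM + 1) called 0.129%, 0% and 0.106% of genes, and no member. Groups without overlap in the upward direction, as for PAX8, were seen for 6.01% of genes in Wnt1_KP6 vs control and 7.34% in Wnt1 vs control.

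**Figure D2:**
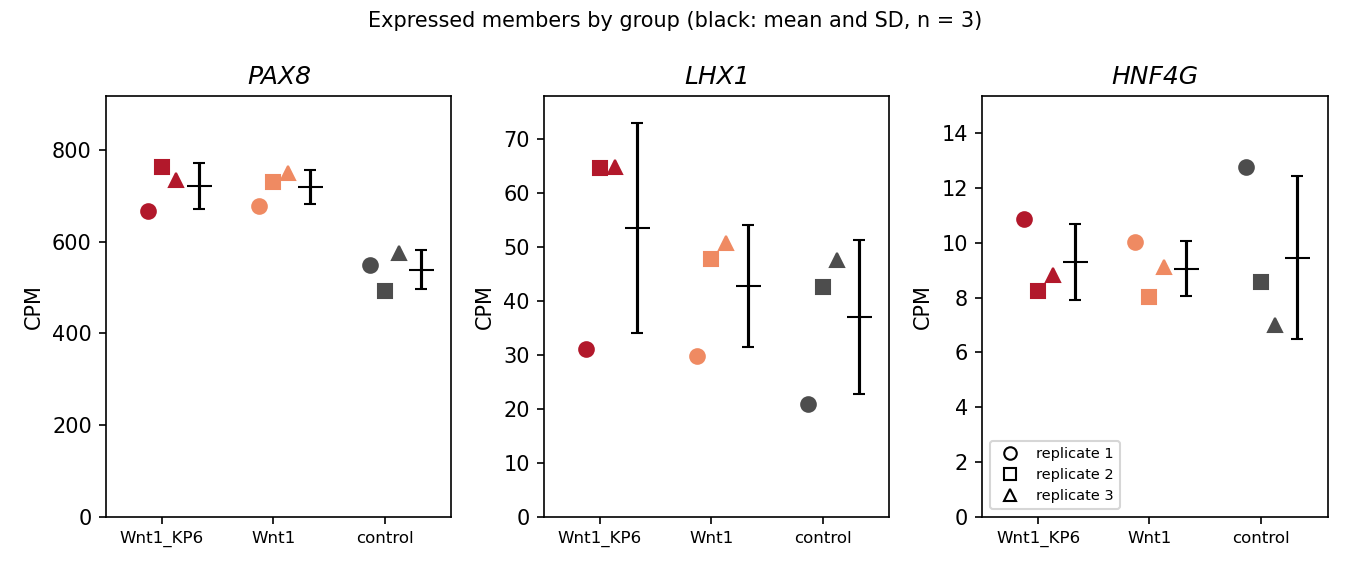
CPM of PAX8, LHX1 and HNF4G in each library, by group, with marker shapes for the replicate numbers and black bars for the mean and SD of 3 libraries. All 6 PAX8 values of the plasmid groups (665.5 to 763.6 CPM) lie above the 3 control values (492.4 to 573.9 CPM), whereas for LHX1 and HNF4G the groups overlap, with replicate 1 the lowest of each group for LHX1 and the highest for HNF4G.

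The deposited FPKM of PAX8 gave a wider gap than its counts. FPKM values were 237.6, 275.2 and 258.5 in Wnt1_KP6, 249.9, 269.3 and 268.5 in Wnt1, and 166.6, 161.4 and 206.0 in control. As a percent of the control mean, Wnt1_KP6 stood at 144.4% and Wnt1 at 147.5% in FPKM, against 133.9% and 133.4% in CPM. The length that the authors' values imply for PAX8, CPM divided by FPKM, was 2.77 to 2.84 kb in Wnt1_KP6 and 2.71 to 2.79 kb in Wnt1, but 3.30, 3.05 and 2.79 kb in control. Control replicates 1 and 2 therefore lie apart from the other 7 libraries on this measure. The part of transcript variants in it was not tested. A further limit is that 9.26% of PAX8 exon bases lie opposite exons of PAX8-AS1, which was not analysed here. Reads from either strand cannot be told apart, since the library kit is not stated to keep strand.

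LHX1 (ENSG00000273706, chr17:36936785-36944612, plus strand) encodes a LIM homeodomain protein needed for the nephric duct and for early nephron patterning. It was expressed at 19.6 FPKM on average, rank 204 among transcription factors. Its CPM was 31.1, 64.6 and 65.0 in Wnt1_KP6, 29.9, 47.7 and 50.7 in Wnt1, and 20.9, 42.5 and 47.7 in control. The lowest library of each group was replicate 1, and the groups overlapped. Replicate 1 had 0.481, 0.607 and 0.462 times the mean of replicates 2 and 3 in Wnt1_KP6, Wnt1 and control. Among transcription factors LHX1 ranked between 127 and 368 across libraries, a far wider range than PAX8.

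The group means of LHX1 were 53.6 ± 19.4 CPM in Wnt1_KP6, 42.8 ± 11.3 in Wnt1 and 37.0 ± 14.2 in control (SD, n = 3 each), and none of the differences passed edgeR's test. The log2 fold change was 0.62 ± 0.40 in Wnt1_KP6 against control (edgeR adjusted p = 0.515), 0.39 ± 0.40 in Wnt1_KP6 against Wnt1 (adjusted p = 1) and 0.23 ± 0.40 in Wnt1 against control (adjusted p = 0.895). Within same-numbered libraries the ratio to control was above 0 on the log2 scale in every pair, at 0.57, 0.60 and 0.44 for Wnt1_KP6 and 0.51, 0.16 and 0.09 for Wnt1. Both sets of ratios use the same control libraries, and the labels do not say that the numbers pair libraries. The share of all genes with such signs was not computed. With the replicate number as a block, Wnt1_KP6 against control had an edgeR adjusted p of 0.0533 for LHX1 and 0.0555 for PAX8, and Wnt1 against control had 0.0851 for PAX8. The block called 1.13%, 0% and 0.722% of all genes in Wnt1_KP6 vs control, Wnt1_KP6 vs Wnt1 and Wnt1 vs control, and no member.

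In replicates 2 and 3 alone, LHX1 was called higher in Wnt1_KP6 than in control, by 0.62 on the log2 scale (edgeR adjusted p = 5.27e-05), and higher than in Wnt1, by 0.47 (adjusted p = 0.00182). PAX8 was called higher than in control in Wnt1_KP6, by 0.59 (edgeR adjusted p = 2.34e-05), and in Wnt1, by 0.49 (adjusted p = 0.00017). These calls rest on 2 libraries a group, and that subset gave calls for 40.6% of all genes in Wnt1_KP6 vs control, 8.62% with KP6 against without it, and 31.6% in Wnt1 vs control. LHX1 in Wnt1 against control was not called there, at 0.15 (edgeR adjusted p = 0.198). Exons of AC243773.1, an antisense RNA not analysed here, lie opposite 7.52% of LHX1 exon bases.

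HNF4G (ENSG00000164749, chr8:75407914-75566843, plus strand) is a nuclear receptor that binds the same DNA motif as HNF4A. It was the lowest of the expressed members at 2.81 FPKM on average, rank 804 among transcription factors. Its CPM was 10.9, 8.23 and 8.83 in Wnt1_KP6, 10.03, 8.02 and 9.10 in Wnt1, and 12.8, 8.57 and 7.01 in control. The 3 groups overlapped, and the highest value of each came from replicate 1. Means were 9.31 ± 1.38 CPM in Wnt1_KP6, 9.05 ± 1.01 in Wnt1 and 9.46 ± 2.99 in control (SD, n = 3 each). Log2 fold changes were 0.06 ± 0.20 in Wnt1_KP6 against control, 0.09 ± 0.21 in Wnt1_KP6 against Wnt1 and -0.03 ± 0.20 in Wnt1 against control. The edgeR adjusted p-values were 0.933, 1 and 0.981. Within pairs the ratio to control took both signs, from -0.23 to 0.31 for Wnt1_KP6 and from -0.33 to 0.35 for Wnt1.

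**Figure D3:**
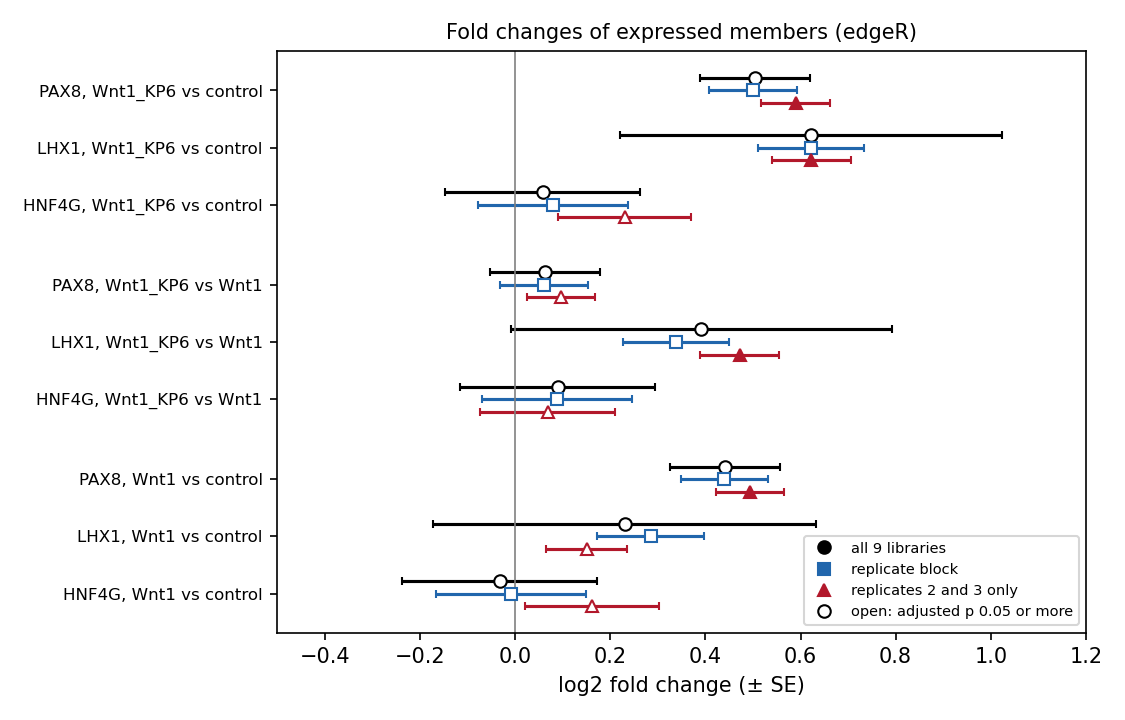
Log2 fold changes of the 3 expressed lineage factors in each comparison with their SE, from edgeR on all 9 libraries (black), with the replicate number as a block (blue) and on replicates 2 and 3 only (red). Filled markers have an adjusted p under 0.05, and they are red points of PAX8 and LHX1, at log2 fold changes of 0.47 to 0.62.

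The order of the 3 expressed members was the same in every library. PAX8 was 8.19 to 19.9 times LHX1 in FPKM, and LHX1 was 3.25 to 13.1 times HNF4G. The 3 genes differed in replicate 1: it was low for LHX1, high for HNF4G at 1.27, 1.17 and 1.64 times replicates 2 and 3 in Wnt1_KP6, Wnt1 and control, and near even for PAX8 at 0.888, 0.918 and 1.03 times. The mitochondrial share moved with replicate 1 as well, and its part in these values was not tested.

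The early duct factors other than PAX8 and LHX1 were at or near 0. PAX2 had 8, 1 and 0 counts in Wnt1_KP6, 5, 0 and 1 in Wnt1, and 8, 3 and 3 in control. Of its 29 counts, 21 came from the replicate 1 libraries, so the trace follows the replicate number more than the group. GATA3 (ENSG00000107485, chr10:8045378-8075203, plus strand), a zinc-finger factor of the nephric duct and later of the collecting duct and urothelium, had 3, 0 and 1 counts in Wnt1_KP6, 4, 0 and 6 in Wnt1, and 1, 0 and 2 in control. EMX2 (ENSG00000170370, chr10:117542444-117549546, plus strand), a homeodomain factor needed for the ureteric bud to grow into the mesenchyme, had 0 counts in all 9 libraries. So did WT1 (ENSG00000184937, chr11:32387775-32435630, minus strand), the zinc-finger factor of nephron progenitors and podocytes. Of the 198 homeobox genes, 60 had 0 counts throughout, EMX2 among them, and 50 were expressed.

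HNF4A (ENSG00000101076, chr20:44355700-44434596, plus strand) had 1, 0 and 0 counts in Wnt1_KP6, 2, 1 and 0 in Wnt1, and 0, 3 and 0 in control. No library passed 3 counts, so the groups cannot be compared at this depth. The level of 0.0148 FPKM on average stands beside 2.81 FPKM of its paralog HNF4G. Of 26 genes that HNF4A is known to activate in liver and gut, 3 were expressed. The highest were the lipoprotein gene APOE at 42.8 FPKM and the protease inhibitor SERPINA1 at 36.6 FPKM. Whether the levels of these genes relate to that of HNF4A was not tested.

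Other nephron transcription factors showed a similar selective pattern. Of 47 in the list, 11 were expressed in all libraries and 9 had 0 counts throughout. The epithelial factor ELF3 averaged 57.1 FPKM. SIX2, which maintains nephron progenitors, averaged 0.157 FPKM, and SALL1, its partner in those cells, 0.0194 FPKM. PAX8 was thus high beside these near-absent progenitor factors and near-absent HNF4A and PAX2.

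**Figure D4:**
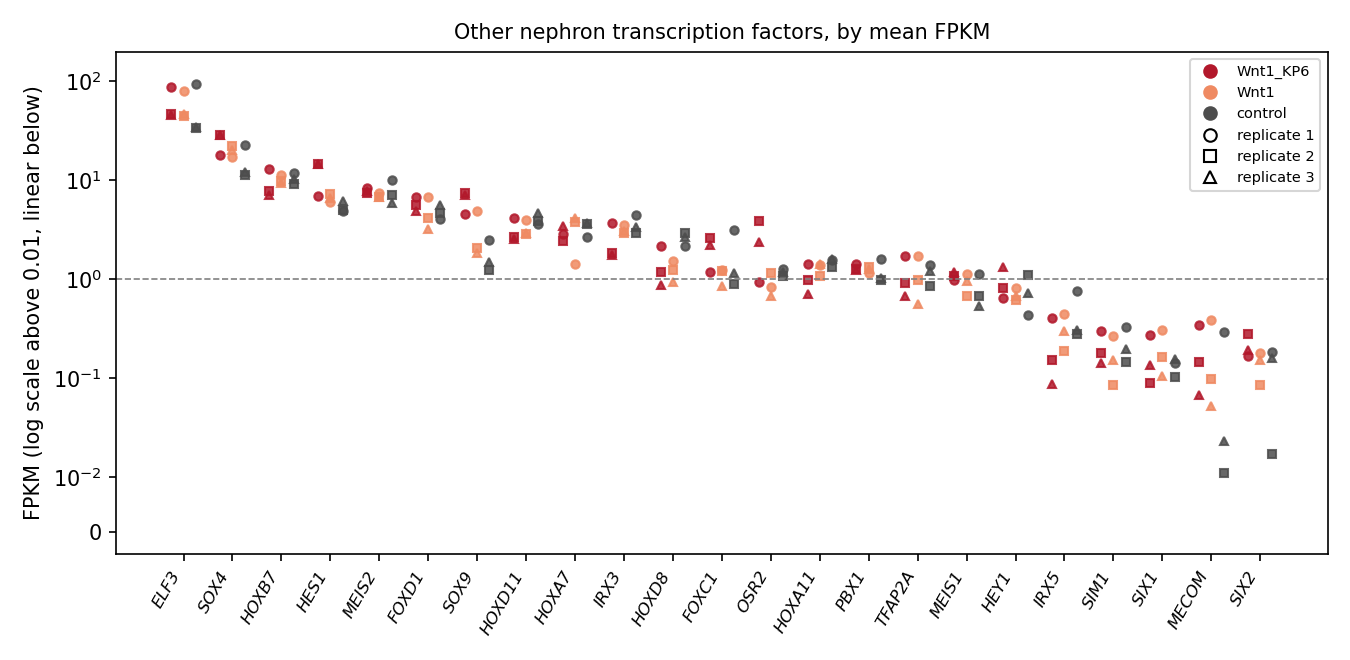
FPKM of 23 other nephron transcription factors, ordered by mean, in each of the 9 libraries, on a scale that is logarithmic above 0.01 and linear below it. Colours stand for groups, shapes for replicate numbers and the dashed line for 1 FPKM. ELF3 stands at the left end, at a mean of 57.1 FPKM, and SIX2 at the right end, at 0.157 FPKM.

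In Wnt1_KP6 against control the nephron factor with the smallest p was SOX9, which marks tubular cells under repair. It had 18.1, 29.5 and 27.9 CPM in Wnt1_KP6 against 9.80, 4.90 and 5.93 CPM in control, with no overlap. Of the 26 nephron factors tested, 2 lay above control without overlap, beside 6.01% of all genes. The log2 fold change of SOX9 was 1.97 ± 0.42 (edgeR adjusted p = 0.0878, DESeq2 adjusted p = 0.000114). The Notch target HES1 had the smallest p in Wnt1_KP6 against Wnt1, at 0.92 ± 0.28 (edgeR adjusted p = 1), and stood at 1.25 ± 0.29 in Wnt1_KP6 against control (edgeR adjusted p = 0.0984, DESeq2 adjusted p = 0.00244). In Wnt1 against control it was HOXD8, at -0.97 ± 0.33 (edgeR adjusted p = 0.322). None of these passed edgeR's threshold.

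EGR1, an immediate-early factor related to WT1 in its DNA-binding domain, had 16.2, 650 and 660 CPM in Wnt1_KP6, 16.9, 37.6 and 41.0 CPM in Wnt1, and 23.5, 22.3 and 30.8 CPM in control. Wnt1_KP6 replicates 2 and 3 stood far above the other 7 libraries, and Wnt1_KP6 replicate 1 held the lowest value of the 9. Its log2 fold change in Wnt1_KP6 was 4.23 ± 1.10 against control (edgeR adjusted p = 0.135, DESeq2 adjusted p = 0.00323) and 3.88 ± 1.08 against Wnt1 (edgeR adjusted p = 1). Of the other 18 relatives of the members, NR2F6, a nuclear receptor, was the highest at 18.9 FPKM.

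Across the 10 lists of other genes that matched the table, 127 of 255 genes were tested and edgeR called none in any comparison. At an unadjusted p under 0.05 there were 17, 5 and 8 in Wnt1_KP6 vs control, Wnt1_KP6 vs Wnt1 and Wnt1 vs control. These were 13.4%, 3.94% and 6.3% of those tested, beside 15.8%, 2.76% and 11.2% of all genes. DESeq2 called 6, 0 and 1, or 4.72%, 0% and 0.787% of those tested, none of them above its share of all genes. The 6 were EGR1, HES1, NR1H3, SOX9, TF and VEGFA, all higher in Wnt1_KP6, and the 1 in Wnt1 against control was NR1H3. limma called none in any comparison. With the replicate block, GFRA1, a receptor for the ureteric bud signal GDNF, was called lower in both plasmid groups than in control, at -1.12 in Wnt1_KP6 (edgeR adjusted p = 0.0159) and -1.21 in Wnt1 (adjusted p = 0.0127). Without the block the edgeR adjusted p of GFRA1 was 0.523 and 0.577, and its replicate 1 was low in every group, at 40.3, 42.2 and 74.1 CPM in Wnt1_KP6, Wnt1 and control. The block also called TF, the iron carrier transferrin, and VEGFA, the endothelial growth factor, higher in Wnt1_KP6 than in control (edgeR adjusted p = 0.0471 and 0.0275). Against control, the block calls were 2.36% of the 127 tested list genes in Wnt1_KP6 and 0.787% in Wnt1. Over all genes its shares were 1.13% and 0.722%. Whether replicate numbers pair the libraries, as the block assumes, was not settled.

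By list, the counts of expressed genes stand beside 53.2% of all genes that met the same definition. The counts do not assign these cells to a nephron segment. Of 53 proximal tubule genes, 16 were expressed and 8 had 0 counts; the median log2 fold change of the 27 tested was 0.03 in Wnt1_KP6 against control and 0.08 in Wnt1 against control, beside -0.0051 and -0.0034 over all tested genes. The values of this list changed when replicate 1 was left out. On all 9 libraries edgeR, DESeq2 and limma called 0 of the 27 against control. By edgeR, 3 and 2 had an unadjusted p under 0.05 in Wnt1_KP6 and in Wnt1. These were 11.1% and 7.41% of those tested, beside 15.8% and 11.2% of all genes. In replicates 2 and 3 only, the median log2 fold change of 26 tested genes was 0.35 in Wnt1_KP6 against control, with 21 above 0. The median over all tested genes was -0.017. By edgeR 11 were called higher and 3 lower, where 40.6% of all genes were called (21.1% higher, 19.5% lower). In Wnt1 against control the list's median was 0.44, with 20 above 0, beside -0.0085 over all tested genes. There 11 were called higher and 4 lower, where 31.6% of all genes were called (16.3% higher, 15.3% lower). With the replicate block over all 9 libraries the medians were 0.13 and 0.10. PDZK1IP1, a membrane protein of the proximal tubule, was the highest at 160.9 FPKM. Of 20 nuclear receptors and metabolic regulators, 11 were expressed, with CEBPB, an inflammation-linked factor, at 77.7 FPKM. Of 27 ureteric bud and collecting duct genes, 11 were expressed, led by the simple-epithelium keratins KRT18 at 263 FPKM and KRT8 at 212 FPKM. Of 25 podocyte and parietal cell genes, 13 were expressed, led by the matrix protein TGFBI at 454 FPKM and the tight-junction protein CLDN1 at 275 FPKM. Of 15 loop and distal tubule markers 1 was expressed, CLDN16 at 4.92 FPKM. Of 10 urothelial markers 3 were expressed, with UPK3B the highest at 9.16 FPKM.

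Within the remaining lists, the genes with the smallest p give the size of what was not called. In Wnt1_KP6 against control these were MIOX, the proximal tubule inositol oxygenase, at 0.59 ± 0.18 on the log2 scale, TF at 0.68 ± 0.18, VEGFA at 0.69 ± 0.20 and the mucin MUC1 at 0.44 ± 0.19. SLC12A3, the distal sodium-chloride transporter, stood at 1.18 ± 0.50, FOXA1, a urothelial factor, at 0.50 ± 0.23, and ACTA2, smooth muscle actin, at 0.38 ± 0.30. Their edgeR adjusted p-values were 0.133 to 0.611. In Wnt1 against control MIOX stood at 0.62 ± 0.18, TF at 0.46 ± 0.18, VEGFA at 0.60 ± 0.20 and NR2F6 at 0.32 ± 0.15. The keratin KRT7 stood at -1.07 ± 0.51, the collagen COL1A1 at -0.46 ± 0.16, the anion exchanger SLC26A4 at -0.85 ± 0.47 and the nuclear receptor PPARG at 0.66 ± 0.34. Their edgeR adjusted p-values were 0.259 to 0.542. In Wnt1_KP6 against Wnt1 every such gene (PPARGC1A, CYP27B1, SERPINA1, KRT8, AREG, COL1A1, FOXA1 and SLC26A4) had an edgeR adjusted p of 1, with log2 fold changes between 0.13 for SERPINA1 and 1.04 for AREG, an EGF receptor ligand.

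Markers of other cell types were few. Of 19 fibroblast, endothelial and immune markers, 3 were expressed (CD68 at 25.1 FPKM, COL1A1 at 5.37 FPKM and ACTA2). A further 8 had 3 counts or fewer in every library. Of these, 5 had 0 counts throughout, PTPRC, KDR, CD3E and EMCN among them. The summed level of the 19 markers was 26.1 to 37.0 FPKM in Wnt1_KP6, 24.6 to 43.1 FPKM in Wnt1 and 31.0 to 41.4 FPKM in control, so the groups overlapped.

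Genes with the pattern nearest to each expressed member were sought among 12034 protein-coding genes, by the root mean square (RMS) difference of log2 CPM over the 9 libraries after centring each gene on its own mean. For PAX8 they were NR1H3, the liver X receptor alpha (0.0544), GPR108 (0.0622) and GMEB2 (0.0640), against a median of 0.314 over all genes. NR1H3 had 13.8, 14.4 and 14.4 CPM in Wnt1_KP6, 14.4, 15.2 and 15.03 CPM in Wnt1, and 11.1, 9.84 and 10.8 CPM in control. As for PAX8, each plasmid library lay above each control library. Such likeness follows from choosing genes over these same 9 libraries, so it is no separate evidence. The log2 fold change of NR1H3 was 0.51 ± 0.11 in Wnt1_KP6 against control (edgeR adjusted p = 0.0822, DESeq2 adjusted p = 0.00609). In Wnt1 against control it was 0.52 ± 0.11 (edgeR adjusted p = 0.128, DESeq2 adjusted p = 0.0081).

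For LHX1 the 3 nearest genes included KCNH1, a potassium channel (0.144), and APBB1IP (0.154), against a median of 0.576. Both were low in replicate 1 of every group, as LHX1 was, a likeness that follows from their selection. For HNF4G they included ARFIP1 (0.0566) and RBBP4, a histone-binding protein (0.0667), against a median of 0.284. Both were highest in control replicate 1 and lowest in control replicate 3. By their own CPM values the members differed in pattern. For PAX8 every plasmid library lay above every control library. LHX1 was lowest in replicate 1 of each group. Within each replicate number both plasmid groups lay above control, though the numbers are not known to pair libraries. HNF4G was highest in replicate 1 of each group.

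**Figure D5:**
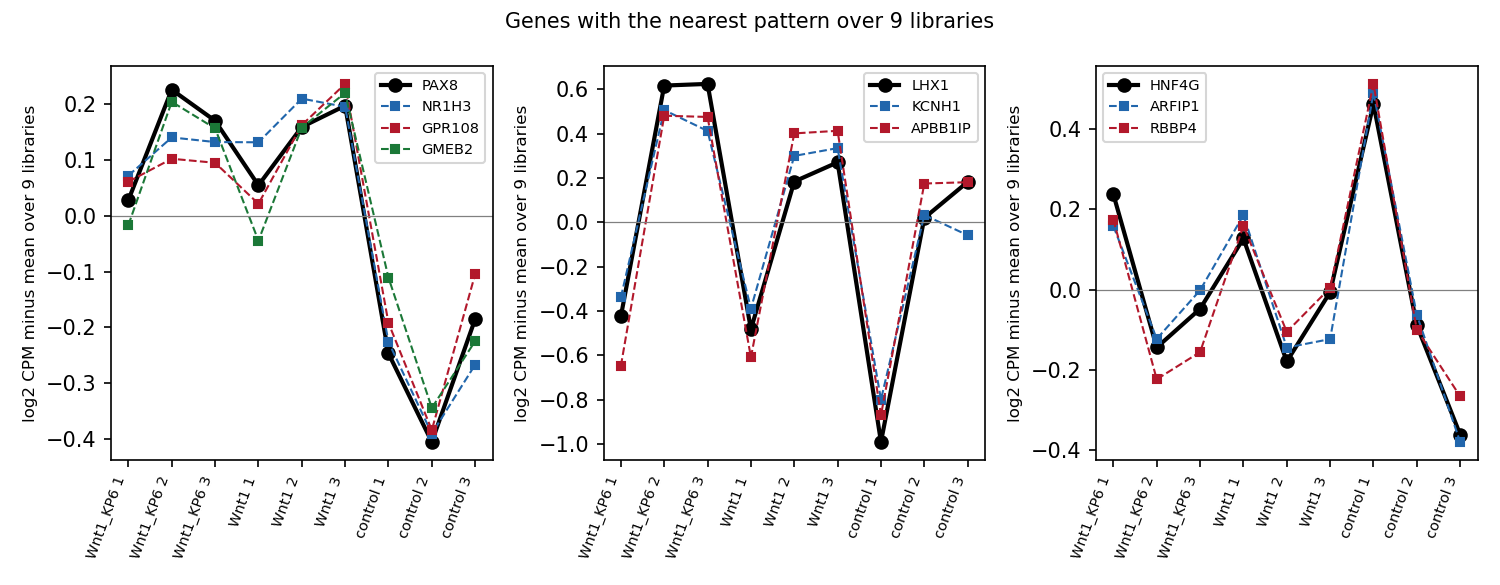
Log2 CPM minus the gene's mean over 9 libraries for PAX8, LHX1 and HNF4G (black) and genes of nearest pattern (dashed; 3 for PAX8, 2 each for LHX1 and HNF4G), by library. The lines join libraries only to guide the eye. PAX8 and its nearest genes are lowest in the control libraries, LHX1 and its nearest genes are lowest in replicate 1 of each group, and HNF4G and its nearest genes are highest in control replicate 1. The nearest genes were chosen for their likeness over these same libraries.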

How the data were processed

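Per the file headers, the authors deposited 1 table that gives every gene in every library 2 values, an expected count and an FPKM. The expected counts are estimated by the authors and need not be whole, and 87.6% of the deposited values were whole (tolerance 1e-09). The FPKM values were scaled by the authors to length and library size, per the file headers. The submitters' processing notes name fastp 0.18.0, Bowtie2 2.2.8, HISAT2, StringTie 1.3.1, RSEM and build hg38, with no role or order. Oligo(dT)-selected RNA went into NEBNext Ultra libraries, per the labels' protocols. Estimated counting shares reads between genes with common sequence, which makes GGT1 uncertain here. Gene IDs were matched to GENCODE release 29 (20171 of 20323) for coordinates and exon overlaps, on the same assembly as hg38.

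Expected counts were rounded. The edgeR function filterByExpr, at a count of 10 and a total of 15, kept 13153 genes and 3 of the 8 members. edgeR 4.0.16 in R 4.3.3 fitted 3 group means to all 9 libraries with TMM factors and a robust quasi-likelihood test, without a block. Tests were two-sided with a Benjamini-Hochberg threshold of 0.05, and the procedure was tested on simulated data. The simulated libraries held no replicate effect, so that run does not cover data in which replicate 1 stands apart. The alternatives were DESeq2 1.42.0, its size factors in edgeR, no filter, limma 3.58.1 on log2(FPKM + 1), a replicate block, a fit without robust estimation, replicates 2 and 3 only, and each library left out. Log ratios within same-numbered libraries use CPM + 0.5. Labels give a replicate number but do not say that it marks a shared culture or day. Whether same-numbered libraries deviate together from their group means was checked in 2 ways, and the ways differ on the limit of 0.1 that was to decide on pairing. A first version, on log2(CPM + 1) over 12288 genes with at least 10 counts in every library, gave correlations of 0.057 to 0.685, with 8 of 9 pairs over the limit. A later version, on TMM-scaled log2 CPM (prior count 2) over 13153 genes, gave 0.110 to 0.672, with all pairs over it. Pairing is therefore not settled, and the block is given only beside the results without it.

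The named genes are the 8 members, the 3 genes of nearest pattern for each tested member (protein-coding, mean CPM of at least 1), and from each of the lists the 2 members with the highest mean FPKM and those called or, with none called, of smallest p. SIX2, SALL1 and EGR1 are named in any case. Some genes that the rule names are not reported here. GFRA1, PAX6 and the expressed or silent markers of other cell types were named after their values were seen. Of 276 list entries, 269 matched the table; the 7 antisense or partner genes at member loci did not and were not analysed here. Members and lists were chosen with earlier results of these data known.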

Additional observations from a re-analysis of the deposited data

How the results depend on the processing

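Of 144 alternative fold changes of PAX8, LHX1 and HNF4G, 126 kept their direction and side of the threshold, 8 passed it newly, 0 lost it and 10 changed sign. DESeq2 called 675, 19 and 305 genes in Wnt1_KP6 vs control, Wnt1_KP6 vs Wnt1 and Wnt1 vs control, against 30, 0 and 16 by edgeR; it called 1, 0 and 1 members (PAX8, at 0.5034 and 0.4416) and 6, 0 and 1 list genes. limma called 17 genes in Wnt1_KP6 vs control. In replicates 2 and 3 only, edgeR called 5293, 1124 and 4115 genes, or 40.6%, 8.62% and 31.6% of all genes tested. Of 3 tested members it called 2, 1 and 1. Of 124 tested list genes it called 68, 17 and 63, or 54.8%, 13.7% and 50.8%. PAX8 then stood at 0.59 in Wnt1_KP6 and 0.4936 in Wnt1 against control. LHX1 in Wnt1_KP6 stood at 0.6224 against control and 0.4722 against Wnt1. With the replicate block, the counts were 149, 0 and 95 genes, 0 members and 3, 0 and 1 list genes. These list genes were 2.36%, 0% and 0.787% of the 127 tested, beside 1.13%, 0% and 0.722% of all genes. Whether the replicate numbers pair the libraries was not settled, since 1 of the 2 versions of the check fell short, so the added calls under the block are open to that choice.

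Leaving out each library in turn gave 0 to 1198 genes, 0 to 1 members and 0 to 15 list genes in Wnt1_KP6 vs control, 0 to 214 genes and 0 to 4 list genes in Wnt1_KP6 vs Wnt1, and 0 to 879 genes and 0 to 13 list genes in Wnt1 vs control. PAX8 then ranged over 0.4354 to 0.594 in Wnt1_KP6 vs control (edgeR adjusted p = 0.0183 to 0.459) and 0.3841 to 0.5046 in Wnt1 vs control. The 10 sign changes fell in 4 fold changes. PAX8 in Wnt1_KP6 vs Wnt1 was -0.03182 by limma and ranged over -0.001231 to 0.1519 with a library left out. LHX1 in Wnt1 vs control ranged over -0.06445 to 0.4682, negative without control replicate 1. HNF4G ranged over -0.1056 to 0.3166 in Wnt1_KP6 vs control and -0.1955 to 0.2271 in Wnt1 vs control, where it was 0.08219 by limma and 0.1619 in replicates 2 and 3. In FPKM in place of CPM, PAX8 was 144.4% of control in Wnt1_KP6 and 147.5% in Wnt1, and HNF4G was 107.6% in Wnt1. The cause of these changes was not tested. At this depth, 3 counts or fewer in a library allow no comparison of HNF4A, EMX2 or WT1 between groups.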
